A study of Mus musculus with 18 samples.

Results

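Cxcl9, Cxcl10, Cxcl11 and Cxcl16 encode CXC chemokines and were selected by gene symbol, 4 of the 45706 genes in the count table. Poly(A) RNA had been sequenced from mouse bone marrow-derived macrophages of the C57BL/6 strain, with a labelled age of 12 days. Bone marrow cells were cultured for 6 days in medium with 30% L929-conditioned medium, a source of macrophage growth factor, and used on day 7. Wild-type (WT) cells gave 9 libraries and cells labelled RelA-TA-KI gave 9; the label names a knock-in at RelA, an activating NF-kB subunit, and does not spell out the altered residues. Each genotype was sampled without stimulation and 0.5, 1, 3 and 8 h after lipopolysaccharide (LPS, 100 ng/ml, a bacterial cell wall component sensed by TLR4) or after the cytokine TNF (10 ng/ml). The series title names the activation logic of RelA target genes in inflammation as the subject.

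Every combination of genotype, agent and time was a single library, so no group had a replicate, and 18 libraries made up the whole design. The error of each test came from the variation among the 9 genotype pairs. Since the labels name neither animals nor cultures, p-values measure the spread between these libraries, which may be technical, and genotype and culture cannot be told apart. Totals ran from 4663650 to 6721917 counts per library. Macrophage markers (9 of 9 tested, among them Lyz2, Cd68 and Csf1r) summed to 9196 to 16400 CPM (counts scaled to a common library size) in each library, whereas 8 T and NK cell markers summed to at most 0.969 CPM.

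Chemokines are small secreted proteins that steer leukocytes along concentration gradients. Cxcl9, Cxcl10 and Cxcl11 share the receptor Cxcr3, found mainly on activated T cells and NK cells, and are textbook interferon-inducible genes. Their promoters are known to receive STAT and IRF factors of the interferon pathway as well as NF-kB, and macrophages are a main source of them in infected tissue. Cxcl16 is different in form: it is made as a membrane-anchored protein that can bind lipids as a scavenger receptor, and proteases shed a soluble part that attracts cells bearing Cxcr6.

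Cxcl9, Cxcl10 and Cxcl11 lie side by side on the minus strand of chromosome 5 in mm10. Cxcl9 (ENSMUSG00000029417.9) spans chr5:92321347-92328079 with 4 exon blocks, Cxcl10 (ENSMUSG00000034855.11) spans chr5:92346638-92348889, and Cxcl11 (ENSMUSG00000060183.6) spans chr5:92359544-92365485 with 4 exon blocks. Cxcl16 (ENSMUSG00000018920.9) stands apart from them at chr11:70453983-70459984, with 6 exon blocks. The table counted Cxcl10 as 1 block of 2252 bases that covers its introns, so its level per kilobase is understated. RefSeq lists mouse Cxcl11 as a transcribed pseudogene, and C57BL/6 mice are known to make no functional Cxcl11 protein, so its RNA is a readout of the locus rather than of a ligand. Over the 18 libraries the genes held 3180, 142907, 2119 and 8195 reads in the order Cxcl9, Cxcl10, Cxcl11, Cxcl16.

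The 250 bases before the start of Cxcl9 and Cxcl10 are shown, from the RefSeq promoter table (GRCm38.p6, which held 2 of the 4 genes). These neighbours had unlike knock-in to WT ratios at 3 and 8 h of LPS, a difference that was not tested. At 3 and 8 h of TNF both genes were lower in the knock-in. Both windows are written 5′ to 3′ on the minus strand, with motif matches in capitals.
Cxcl9, chr5:92328080-92328329: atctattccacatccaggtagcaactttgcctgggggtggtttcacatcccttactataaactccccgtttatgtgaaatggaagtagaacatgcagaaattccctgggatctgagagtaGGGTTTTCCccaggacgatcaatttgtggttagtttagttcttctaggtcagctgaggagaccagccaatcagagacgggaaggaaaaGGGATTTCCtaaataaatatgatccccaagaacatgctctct
Cxcl10, chr5:92348890-92349139: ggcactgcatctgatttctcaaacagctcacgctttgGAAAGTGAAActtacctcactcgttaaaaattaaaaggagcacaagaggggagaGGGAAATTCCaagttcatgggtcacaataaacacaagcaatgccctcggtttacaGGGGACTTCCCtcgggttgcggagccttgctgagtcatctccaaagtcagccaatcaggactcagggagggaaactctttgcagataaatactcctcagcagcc
The Cxcl10 window held 1 match to the core of the interferon-stimulated response element (GAAA, any 2 bases, GAAA), GAAAGTGAAA at -213 to -204 from the start. It also held the NF-kB (kB) consensus at -159 to -150 (GGGAAATTCC) and, in overlapping matches on both strands, at -104 to -94. The Cxcl9 window held neither, but had the shorter kB pattern GGGNNTTCC at -130 to -122 (GGGTTTTCC) and -42 to -34 (GGGATTTCC). That shorter pattern was chosen with these letters in view, and it also lies inside the Cxcl10 match at -103 to -95. Neither window matched the STAT element TTCNNNGAA. Both strands were searched, and among all 32851 windows of this length 2.98% held the interferon-response core, 7.25% the kB consensus, 4.98% the shorter kB pattern and 7.02% the STAT element. These matches are letters in a window, not measured binding, and their part in the genotype differences was not tested.

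Without stimulation Cxcl10 and Cxcl16 were detected and the other 2 genes hardly were. Per kilobase of exon, Cxcl16 stood at 1.80 CPM in WT and 2.37 in knock-in cells, and Cxcl10 at 1.76 and 1.75, each from 22 to 44 reads. Cxcl11 had 3 reads in WT and 2 in knock-in cells, and Cxcl9 had 0 in both. No order of Cxcl10 and Cxcl16 can be given without stimulation, because the level of Cxcl10 per kilobase is understated. At 8 h of LPS Cxcl10 led with 3133 CPM per kilobase in WT and 3514 in knock-in cells, followed by Cxcl16 with 169 and 181. Cxcl9 was above Cxcl11 in WT (118 against 38.7 CPM per kilobase) and below it in knock-in cells (55.8 against 90.6), so the order of the 2 lowest depended on the genotype.

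All 4 genes rose after LPS. The F test over the 4 times called all 4 higher, with adjusted p from 5.26e-11 (Cxcl9) to 2.46e-05 (Cxcl10). Since an F test has no direction, higher or lower was read, here and for TNF, from the time with the largest change against unstimulated cells. Adjusted p-values are from edgeR's quasi-likelihood test with Benjamini-Hochberg adjustment over 11308 genes unless another tool is named. By that test 35.8% of genes were higher and 36.4% lower, or 4047 against 4112. Libraries were scaled by TMM factors; scaling them by total counts moved the median of all genes by -0.88 on the log2 scale here and left 1973 higher and 7853 lower. Against unstimulated cells no chemokine gene was called at 0.5 h (0.875% of genes were called higher), Cxcl10 and Cxcl16 were at 1 h (4.25%), and all 4 were at 3 h (24.8%) and 8 h (33.8%).

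Cxcl10 was the earliest to reach its highest level and by far the most abundant. In WT cells it stood at 3.96 CPM without LPS and at 146, 1023, 8778 and 7055 CPM after 0.5, 1, 3 and 8 h. The knock-in series ran 3.94, 13.1, 157, 9005 and 7914 CPM. The knock-in libraries were far below WT at 0.5 and 1 h and near it at 3 and 8 h. Over both genotypes the 1 h libraries were 153-fold above unstimulated cells (95% counting interval 117 to 203) and the 3 h libraries 2248-fold (1723 to 2993). The step from 3 to 8 h was -0.22 ± 0.73 on the log2 scale (SE, adjusted p = 0.823), the only one of the 4 genes not called higher in that interval.

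Cxcl9 came later. Its WT series after LPS was 0.151, 0.552, 222 and 357 CPM at 0.5, 1, 3 and 8 h, the first 2 values resting on 1 and 3 reads. The knock-in series was 0.162, 0, 88.8 and 168 CPM. Between 1 and 3 h it went from 3 reads in the 2 libraries together to 1429, and it rose again by 0.80 ± 0.15 on the log2 scale from 3 to 8 h (adjusted p = 0.00112; 0.38 and 0.0603 with scaling by total counts). With a floor of 3 counts over the 2 unstimulated libraries, which held 0, it was at least 718-fold higher at 3 h.

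Cxcl11 and Cxcl16 kept climbing to the last time point. Cxcl11 in WT cells was at 0.371 CPM without LPS and then at 0.453, 1.84, 36.0 and 147 CPM, and in knock-in cells at 0.359, 0.324, 0.587, 62.2 and 344 CPM. Here the knock-in libraries were the higher ones at 3 and 8 h. Cxcl16 in WT cells went 5.44, 12.7, 41.0, 175 and 512 CPM. The knock-in values of Cxcl16 were 7.17, 8.91, 15.5, 112 and 545 CPM, below WT at 0.5, 1 and 3 h and 1.07 times WT at 8 h, a ratio that becomes 0.926 with scaling by total counts. From 3 to 8 h Cxcl11 rose by 2.27 ± 0.23 and Cxcl16 by 1.92 ± 0.33 on the log2 scale (adjusted p = 6.26e-06 and 0.000631). In that step 26.6% of genes were called higher (3008 higher and 2794 lower, or 1524 and 4943 with scaling by total counts). In the step from 1 to 3 h, where all 4 chemokines rose, 19.9% were (2252 higher and 2019 lower, or 1264 and 5295).

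**Figure D1:**
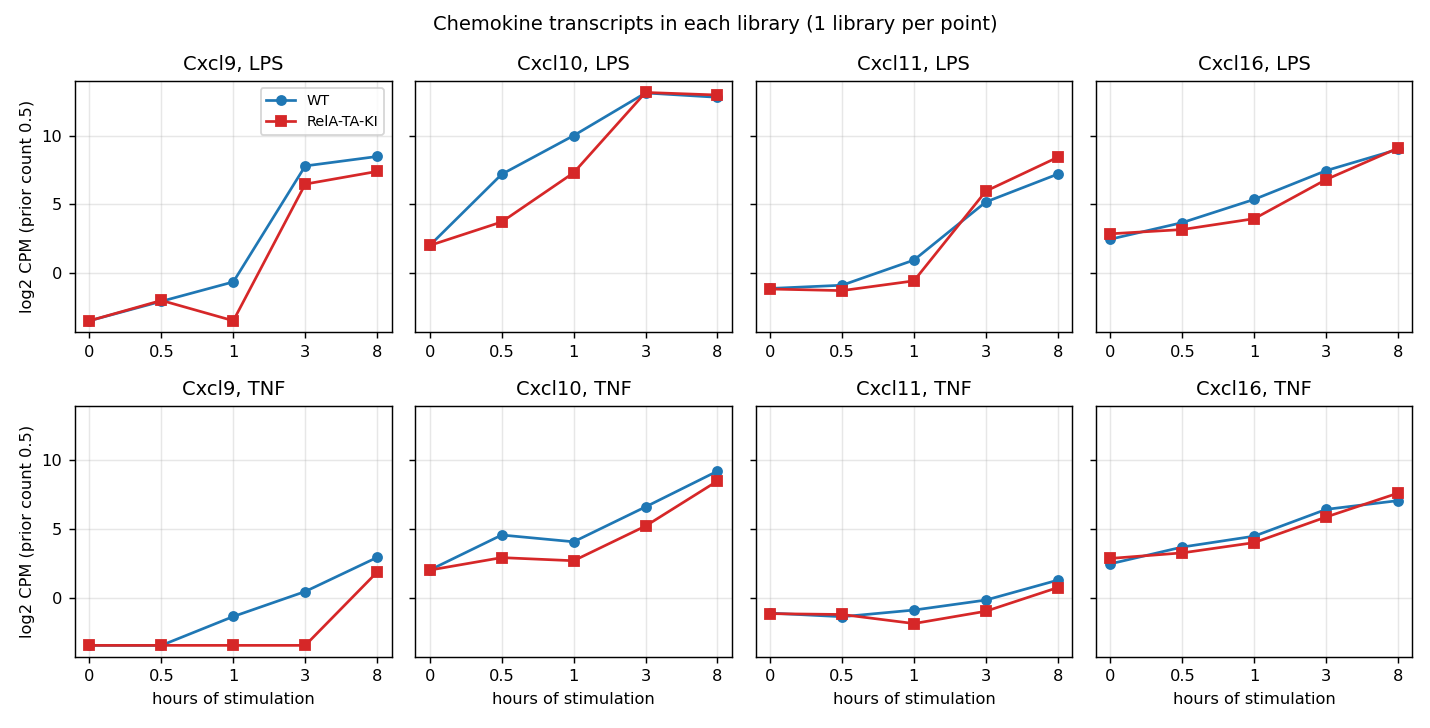
Level of each chemokine RNA in every library, as log2 CPM with a prior count of 0.5 (vertical axis), against hours of stimulation (horizontal axis, evenly spaced), with LPS in the top row and TNF in the bottom row. Blue circles are WT and red squares RelA-TA-KI, 1 library per point; at 1 h of LPS Cxcl10 stood at 1023 CPM in WT and 157 CPM in knock-in cells, and at 3 h at 8778 and 9005.

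Timing relative to each gene's own highest level separated the genes further. At 1 h of LPS WT Cxcl10 was at 11.7% of its highest LPS value and Cxcl16 at 8.02%, while Cxcl11 was at 1.25% and Cxcl9 at 0.155%. In knock-in cells at 1 h Cxcl16 was ahead, at 2.83% against 1.74% for Cxcl10. At 0.5 h Cxcl16 was ahead in WT (2.48% against 1.66%) and in knock-in cells (1.63% against 0.146%). Cxcl16 had started from 1.06% in WT and 1.31% in knock-in cells without stimulation. At 3 h in WT cells Cxcl10 was at its highest, Cxcl9 at 62.1%, Cxcl16 at 34.3% and Cxcl11 at 24.5%. Knock-in cells showed the same ranking at 3 h, with 100% for Cxcl10, 52.7% for Cxcl9, 20.5% for Cxcl16 and 18.1% for Cxcl11. After TNF the highest value of Cxcl9, Cxcl10 and Cxcl16 in both genotypes was at 8 h, and Cxcl16 was furthest along at 3 h, with 64.3% in WT and 30.0% in knock-in cells.

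**Figure D2:**
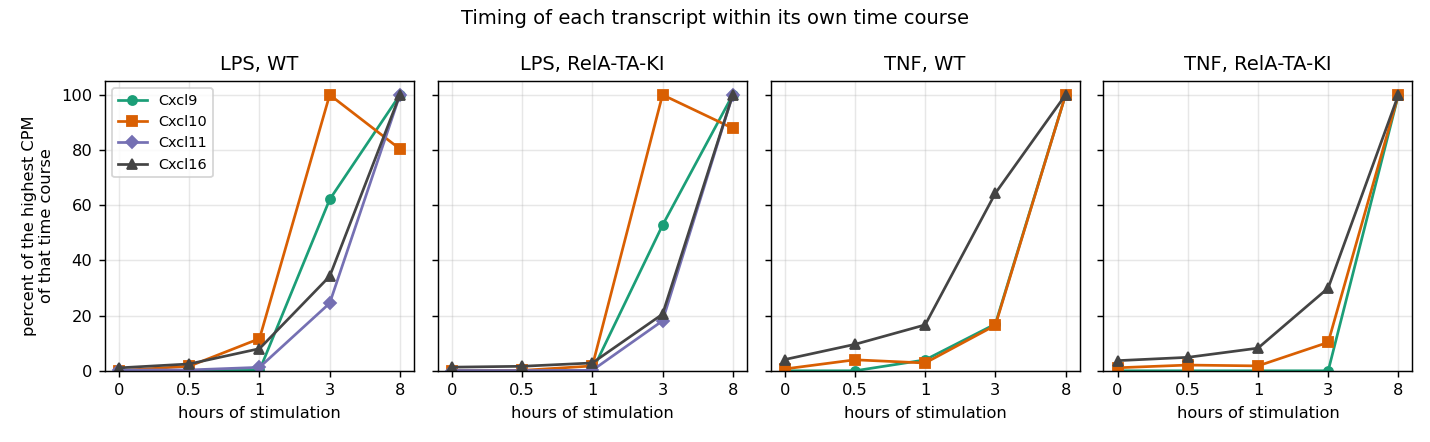
Percent of the highest CPM that each gene reached within its own time course (vertical axis) against hours of stimulation (horizontal axis, evenly spaced), for LPS and TNF in each genotype. Cxcl10 peaked at 3 h of LPS and the other genes at 8 h; Cxcl11 after TNF is left out because no library held more than 13 reads.

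Cxcl9, Cxcl10 and Cxcl16 rose after TNF as well. The F test over the TNF times called these 3 of the 4 genes higher, and Cxcl11 had an adjusted p of 0.141. Of all genes 16.7% were higher and 13.6% lower, or 1893 against 1541 (1322 and 2853 with scaling by total counts, which moved the median by -0.25 on the log2 scale). The same 3 genes were called at 3 h (7.6% of genes) and at 8 h (17.1%) against unstimulated cells, and none of the 4 before. Without the TNF 8 h pair the calls of Cxcl9 (5.06 on the log2 scale, adjusted p = 0.114) and Cxcl10 (4.07, adjusted p = 0.114) were lost. This comparison and the LPS response share the 2 unstimulated libraries.

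Cxcl10 in WT cells was at 23.5, 16.7, 97.5 and 592 CPM after 0.5, 1, 3 and 8 h of TNF. Knock-in cells had 7.47, 6.37, 37.1 and 360 CPM, lower than WT at each time. Over both genotypes the level at 8 h was 122-fold that of unstimulated cells (counting interval 93.2 to 162). The step from 3 to 8 h was 2.95 ± 0.81 on the log2 scale (adjusted p = 0.0366, and 0.0996 with no filter on low counts). In that step 8.71% of genes were called higher (985 higher and 791 lower, or 709 and 1400 with scaling by total counts).

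Cxcl16 stood higher at each later time after TNF. WT cells had 12.8, 22.2, 86.0 and 134 CPM, and knock-in cells 9.51, 16.0, 58.6 and 195 CPM. It was the only one of the 4 chemokines called higher in the step from 1 to 3 h (1.91 ± 0.37 on the log2 scale, adjusted p = 0.0151), where 3.22% of genes were (364 higher and 332 lower, or 256 and 451 with scaling by total counts). It rose again to 8 h by 1.23 ± 0.33 (adjusted p = 0.0298). With no filter on low counts neither step of Cxcl16 passed (adjusted p = 0.0536 and 0.11). The step of Cxcl10 from 1 to 3 h was 2.53 ± 0.91 by edgeR (adjusted p = 0.148) and was called by DESeq2 (2.55, adjusted p = 0.0344).

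Cxcl9 was barely detected under TNF before 8 h. WT libraries held 0, 2, 8 and 42 reads in time order, the last equal to 7.56 CPM, and knock-in libraries 0, 0, 0 and 18 reads, the last equal to 3.56 CPM. The step from 3 to 8 h was called higher (2.99 ± 0.47 on the log2 scale, adjusted p = 0.00124). Cxcl11 reached 13 reads in WT and 8 in knock-in cells at 8 h of TNF, or 2.34 and 1.58 CPM, against 3 and 2 reads without stimulation. By edgeR the TNF response of Cxcl11 missed the threshold (2.33 on the log2 scale at 8 h, adjusted p = 0.141). It was called by DESeq2 (2.43, adjusted p = 0.0144) and by edgeR without the LPS 8 h pair (2.35, adjusted p = 0.0477).

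All 4 genes were higher with LPS than with TNF. Averaged over the 4 times, LPS exceeded TNF by 4.76 ± 0.45 on the log2 scale for Cxcl10, 4.28 ± 0.74 for Cxcl9, 3.78 ± 0.60 for Cxcl11 and 0.78 ± 0.19 for Cxcl16 (adjusted p = 1.93e-05, 0.000575, 0.000246 and 0.0059). Of all genes 23.7% were called higher and 25.2% lower, or 2682 and 2848 (1172 and 7057 with scaling by total counts, which moved the median by -0.31). By time, Cxcl10 alone of the 4 was called at 1 h (0.92% of genes) and all 4 at 3 h (16.9%) and 8 h (30%). Neutrophil markers were higher with LPS for 5 of 7 tested over the 4 times, summing to 104.9 to 348 CPM in LPS and 101 to 239 CPM in TNF libraries. Stromal and endothelial markers were higher for 3 of 5 tested, and for 5 of 5 at 8 h, summing to 44.2 to 198 CPM in LPS and 15.05 to 170 CPM in TNF libraries. After LPS itself 4 of 7 neutrophil and 2 of 5 stromal and endothelial markers rose, where 35.8% of all genes did. After TNF 0 of either list rose, where 16.7% of all genes did. Macrophage markers moved too: 7 of 9 were higher and 1 lower with LPS than with TNF. After LPS 6 of the 9 rose and 1 fell, and after TNF 3 rose and 2 fell. The part of neutrophil, stromal and endothelial cells in the chemokine responses was not tested. The Cxcl16 call rests on the last time point: without the LPS 8 h pair the value was 0.49 (adjusted p = 0.226) and without the TNF 8 h pair 0.49 (adjusted p = 0.0986).

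The ratio of LPS to TNF within a genotype showed where the gap opened. For Cxcl10 it was already 6.19 at 0.5 h in WT cells (counting interval 5.23 to 7.37) but 1.75 in knock-in cells (1.2 to 2.59). At 3 h it was 90.0 in WT and 243 in knock-in cells, and at 8 h 11.9 and 22.0. Cxcl9 at 8 h was 47.2-fold higher with LPS than with TNF in either genotype (intervals 34.7 to 65.9 and 29.6 to 80.3). The Cxcl16 ratio was 0.99 in WT and 0.936 in knock-in cells at 0.5 h, with intervals that include 1, and reached 3.83 and 2.79 at 8 h.

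**Figure D3:**
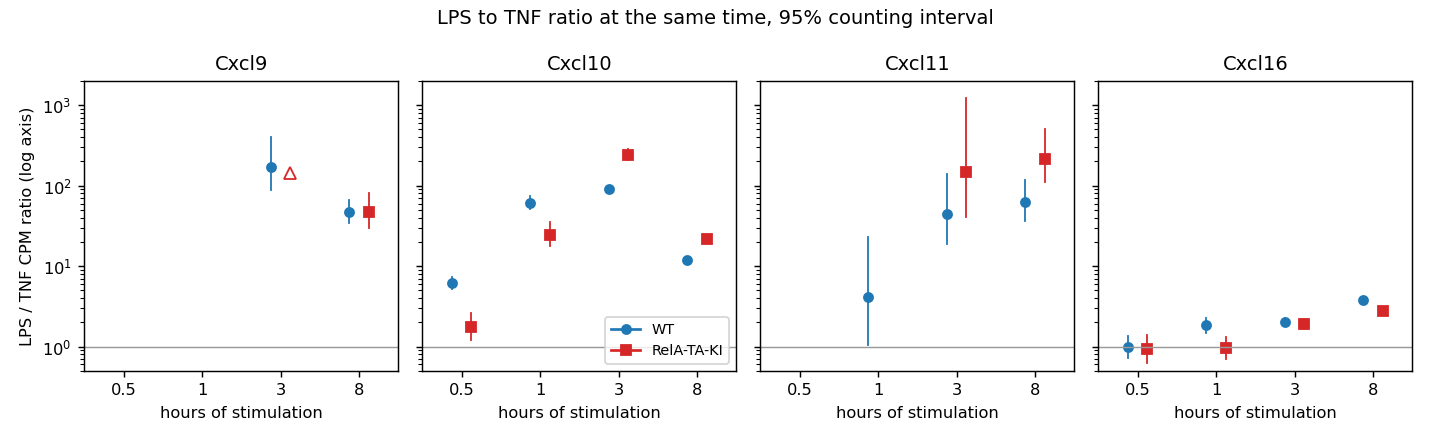
Ratio of CPM after LPS to CPM after TNF at the same time and in the same genotype (vertical log axis) against hours of stimulation (horizontal axis), with 95% counting intervals. Blue circles are WT and red squares RelA-TA-KI, the open triangle is a lower bound of 142 against 0 reads taken at 3 counts, and points with no more than 3 reads on both sides are left out; Cxcl16 reaches at most 3.83, while the highest ratios of Cxcl9, Cxcl10 and Cxcl11 are 173, 243 and 217.

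Between genotypes, Cxcl9 was lower in RelA-TA-KI cells and Cxcl11 was higher at 3 and 8 h of LPS. The call of Cxcl11 on its mean difference was lost with DESeq2 and without the LPS 3 h or LPS 8 h pair. Cxcl10 and Cxcl16 did not pass the test of the mean difference. Over the 9 pairs, 1 of the 4 genes was called lower and 1 higher, where 9.46% of all genes tested were lower and 10.3% higher, or 1070 and 1162 (1823 and 705 with scaling by total counts, which moved the median by -0.08 on the log2 scale). Neutrophil markers were lower in knock-in cells for 7 of 7 tested, with summed levels of 170 to 348 CPM in WT and 81.4 to 243 in knock-in libraries. Stromal and endothelial markers were lower for 4 of 5 tested, at 99.8 to 198 CPM in WT and 15.05 to 76.9 in knock-in libraries. Their part in the chemokine differences was not tested, and in bulk RNA fewer cells of a type and less RNA per cell cannot be told apart.

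The knock-in to WT ratio of Cxcl9 was 0.4002 at 3 h of LPS (388 against 1041 reads, counting interval 0.355 to 0.450). At 8 h it was 0.471 (570 against 1106 reads, 0.425 to 0.522). At 8 h of TNF it was again 0.471 (18 against 42 reads, 0.255 to 0.837), and at 3 h of TNF, with 0 against 8 reads, it was at most 0.488 with the empty library set to 3 counts. Cxcl9 was thus lower in the knock-in in each of the 4 pairs with more than 3 reads. The mean difference was -1.22 ± 0.14 on the log2 scale (adjusted p = 0.000142), and the exact two-sided sign-flip permutation test over the 9 pairs gave p = 0.0313. The pairs without stimulation and at 0.5 h of TNF held 0 reads in both genotypes and add nothing to that test. Its smallest possible value for Cxcl9 is therefore above the 0.00391 of 9 informative pairs. The pairs at 0.5 and 1 h of LPS and at 1 h of TNF held at most 3 reads per library. Over the LPS times it was -1.21 ± 0.17 (adjusted p = 0.00169; 4.52% of genes were called lower), and over the TNF times -1.39 ± 0.43 (adjusted p = 0.105; 2.91% lower). The TNF value was -4.48 (adjusted p = 0.101) without the TNF 8 h pair, which leaves reads (2 and 8) in WT libraries only. With scaling by total counts these comparisons held 421 genes higher and 641 lower in place of 619 and 511 for LPS, and 178 and 434 in place of 273 and 329 for TNF.

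Cxcl10 was far lower in knock-in than in WT cells early after LPS, and near WT late. At 0.5 h the ratio was 0.0900 (81 against 966 reads, counting interval 0.0708 to 0.113), an 11.1-fold difference, and at 1 h 0.154 (803 against 5561 reads, 0.142 to 0.165). At 3 h it was 1.03 and at 8 h 1.122, values that turn to 0.955 and 0.975 when libraries are scaled by their totals, so no late direction can be given. In unstimulated cells it was 0.996 (interval 0.552 to 1.77).

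Under TNF the Cxcl10 ratio stayed below 1 throughout. It was 0.317 at 0.5 h (interval 0.222 to 0.446), 0.381 at 1 h, 0.380 at 3 h and 0.608 at 8 h (0.574 to 0.644). The mean over the 9 pairs, -1.22 ± 0.42 on the log2 scale, had an adjusted p of 0.0693 by edgeR. DESeq2 gave -1.21 (adjusted p = 0.0146), the exact sign-flip permutation test p = 0.0273 with 7 of 9 pairs lower, and scaling by total counts -1.31 (adjusted p = 0.0493).

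The change of the Cxcl10 difference with time was tested directly. Late (3 and 8 h) minus early (0.5 and 1 h) over both agents was 2.09 ± 0.51 on the log2 scale (adjusted p = 0.193), a comparison in which 0.398% of genes were called (36 higher and 9 lower, or 19 and 10 with scaling by total counts); DESeq2 gave 1.88 (adjusted p = 0.00491) and limma-voom 2.54 (adjusted p = 0.0184). Within LPS alone, a test added after the values were seen, it was 3.12 ± 0.30 (adjusted p = 0.015; 1.27% of genes called), and without the LPS 8 h pair 3.02 (adjusted p = 0.0699). Within TNF it was 0.51 ± 0.37 (adjusted p = 0.892; 0.0177% of genes called). The LPS effect of genotype minus the TNF effect was not called for any of the 4 genes, and edgeR called 0 of the 11308 genes (578 had an unadjusted p under 0.05, DESeq2 called 4 and limma-voom 0).

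Cxcl11 went the other way late after LPS. The knock-in to WT ratio was 1.73 at 3 h (272 against 169 reads, counting interval 1.42 to 2.11) and 2.34 at 8 h (1164 against 455 reads, 2.10 to 2.61). Before 3 h and under TNF no library held more than 13 reads, and the ratio was below 1 in the 3 pairs there with more than 3 reads, at 0.319, 0.521 and 0.677, with intervals that include 1. The mean over LPS was 0.91 ± 0.20 on the log2 scale (adjusted p = 0.0144; 5.47% of genes were called higher). It was 0.49 by DESeq2 (adjusted p = 0.590), 1.00 without the LPS 3 h pair (adjusted p = 0.0617) and 0.57 without the LPS 8 h pair (adjusted p = 0.236). The mean over all 9 pairs was 0.77 ± 0.21 (adjusted p = 0.0245). It was 0.78 (adjusted p = 0.0780) without the LPS 3 h pair, 0.34 (adjusted p = 0.377) without the LPS 8 h pair, 0.07 by DESeq2 (adjusted p = 0.934), and -0.23 (exact permutation p = 0.426, 6 of 9 pairs lower) when each pair counted equally.

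Cxcl16 was lower in knock-in cells in each stimulated pair up to 3 h. The LPS ratios were 0.702, 0.377 and 0.638 at 0.5, 1 and 3 h, and the TNF ratios 0.743 (counting interval 0.521 to 1.05, the only one of the 6 to include 1), 0.721 and 0.681. At 8 h the ratio was 1.07 with LPS (0.926 when scaled by library totals) and 1.46 with TNF, where the counting interval was 1.33 to 1.61. The mean over the 9 pairs was -0.31 ± 0.18 on the log2 scale (adjusted p = 0.263). The late minus early difference was 0.62 ± 0.34 (adjusted p = 0.54).

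**Figure D4:**
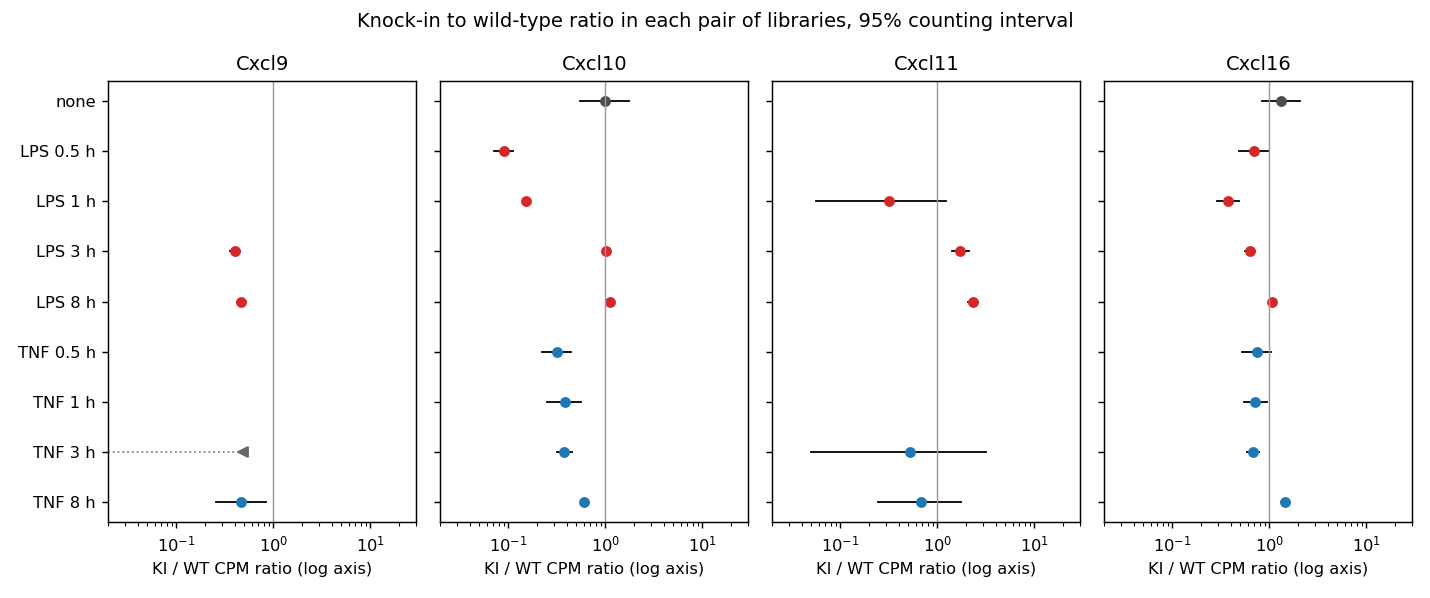
Ratio of CPM in RelA-TA-KI to CPM in WT cells (horizontal log axis) for each of the 9 conditions (rows), with 95% counting intervals that cover counting error only. Red is LPS, blue TNF and dark grey unstimulated, the triangle is an upper bound at 3 counts, and pairs with no more than 3 reads on both sides are left out; the Cxcl10 ratio runs from 0.0900 at 0.5 h to 1.122 at 8 h of LPS (0.975 with scaling by total counts), while Cxcl9 stays at or below 0.488.

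Genes of the interferon pathway were counted from a list of 16, of which 15 were tested. After LPS 13 of the 15 rose and 1 fell, where 35.8% of all genes tested rose and 36.4% fell, and after TNF 9 rose, where 16.7% of all genes did. By genotype 4 of 15 were called higher and 2 lower over the 9 pairs, where 10.3% and 9.46% of all genes were, with a median difference of 0.07 on the log2 scale against -0.00467 over all genes. The 4 most abundant were Irf7, Irf1, Stat2 and Jak1.

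After LPS, Irf1, an activator of many interferon-responsive promoters, differed between genotypes at the same times as Cxcl10. WT cells held 24.0 CPM without LPS and then 299, 536, 1763 and 1106 CPM, and knock-in cells 26.9, 18.3, 36.6, 1843 and 1131 CPM. The knock-in libraries were low at 0.5 and 1 h of LPS and near WT at 3 and 8 h. After TNF, WT cells held 277, 312, 424 and 337 CPM in time order. Knock-in cells held 25.1, 86.1, 184 and 359 CPM, above WT only at 8 h, where Cxcl10 was below it. The mean genotype difference was -1.46 ± 0.59 on the log2 scale (adjusted p = 0.12). The late minus early difference within LPS was 3.99 ± 0.68 (adjusted p = 0.0924), which missed the threshold.

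Irf7, which amplifies type I interferon, was higher in knock-in cells over the 9 pairs by 0.41 ± 0.10 on the log2 scale (adjusted p = 0.0153). At 8 h of LPS it stood at 3407 CPM in WT and 5173 CPM in knock-in cells. Stat2, a subunit of the interferon-activated ISGF3 complex, was at 1836 and 2014 CPM there and its genotype difference was not called (adjusted p = 0.284), nor was that of the receptor-associated kinase Jak1 (adjusted p = 0.315).

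Ifng, which encodes interferon gamma, had 1 read in all libraries together. Ifnb1, the gene of interferon beta, lies outside the naming rule and was singled out after its values were seen. After LPS it was at 0.302, 93.1, 27.9 and 17.8 CPM in WT cells and at 0.972, 137, 189 and 28.3 CPM in knock-in cells, the widest gap being at 3 h. After TNF no library passed 0.417 CPM.

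All 5 NF-kB subunit genes rose after LPS, where 35.8% of all genes did, and 4 of 5 after TNF, where 16.7% did. Over the 9 pairs 4 of 5 were lower in knock-in cells, where 9.46% of all genes were (1823 of 11308 with scaling by total counts). Nfkb2 differed by -0.83 ± 0.13 on the log2 scale (adjusted p = 0.00138), Nfkb1 by -0.45 ± 0.11 (adjusted p = 0.014) and Rela by -0.20 ± 0.06 (adjusted p = 0.0489). Rel was not called (adjusted p = 0.437). The Rela transcript does not check the knock-in label, since the label does not spell out the change and it need not alter the count.

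Most other CXC ligands that were tested were lower in the knock-in. Of 11 listed, 6 were tested, 4 were lower and 1 was higher, where 9.46% of all genes were lower and 10.3% higher, and the median was -2.00 on the log2 scale. Cxcl1, a neutrophil attractant, differed by -3.35 ± 0.29 (adjusted p = 2.82e-05) and Cxcl2 by -1.53 ± 0.35 (adjusted p = 0.0144). Cxcl2 at 3 and 8 h of LPS stood at 323 and 335 CPM in WT but 53.5 and 25.4 CPM in knock-in cells. Pf4, a platelet chemokine, was the higher one (0.45 ± 0.04, adjusted p = 1.18e-05), and Cxcl13, Cxcl15 and Cxcl17 had no reads.

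The proteases and helpers that act on these ligands were also measured. Adam10 and Adam17 are known to shed Cxcl16, Rhbdf2 encodes iRhom2, which helps Adam17 mature, and Dpp4 trims Cxcr3 ligands. Of the 4, 3 were lower in knock-in cells over the 9 pairs, where 9.46% of all genes were (1823 of 11308 with scaling by total counts): Adam17 differed by -0.51 ± 0.11 on the log2 scale (adjusted p = 0.00781), Rhbdf2 by -0.38 ± 0.04 (adjusted p = 2.92e-05) and Dpp4 by -1.18 ± 0.27 (adjusted p = 0.00735, from 112 reads in all). Adam10 was at 0.00 ± 0.04 (adjusted p = 1). At 8 h of LPS Adam17 was at 821 CPM in WT and 341 CPM in knock-in cells.

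Receptor transcripts were rare. Cxcr6 had 4 reads and Ackr3, a scavenging receptor for Cxcl11, had 15 in all libraries together. Cxcr3 lay between 1.62 and 7.67 CPM in 17 of the 18 libraries and at 53.1 CPM (180 reads) in the knock-in library at 8 h of LPS, against 4.52 CPM in the WT library of that time. Its genotype difference over the LPS times was not called (1.17 ± 0.61 on the log2 scale, adjusted p = 0.275), and a single library holds the high value.

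The genes whose profile over the 18 libraries most resembled each chemokine were listed by Pearson correlation of log2 CPM, as a description without a test, since all share the LPS response and library depth. For Cxcl9 they were Zfp800 (r = 0.986), Zup1, the cytokine Il15, the kinase Jak2 and the TLR adaptor Myd88 (0.977). For Cxcl10 they were Ccl5, another T-cell attracting chemokine (0.955), Ggct, the caspase-8 inhibitor Cflar, the cytokine Il27 and the GTPase Gbp5 (0.945). Cxcl11 was followed by Rap2c (0.990), Ppa1, Sptlc2, Nsd3 and Ythdf1 (0.983), and Cxcl16 by Slc2a6 (0.989), the NADPH oxidase subunit Cybb, Traf1, Gch1 and Slc39a1 (0.970). Among the 4 chemokines themselves r ran from 0.839 (Cxcl11 with Cxcl16) to 0.951 (Cxcl9 with Cxcl11).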

How the data were processed

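RNA sequencing of 18 libraries (9 WT, 9 RelA-TA-KI) was analysed. The authors deposited raw counts per gene with mm10 coordinates, not normalized, per the file headers. Per the labels' protocols, poly(A) libraries were made with a stranded kit and 12 PCR cycles and read as single ends of 50 bases. Per the submitters' processing notes, reads passed cutadapt 1.12, STAR and featureCounts 1.5.0; the strand setting of the counting is not given in the sources used here. On the opposite strand, exons of Cxcl10 share 133 bases with Art3, those of Cxcl11 1582 with Gm2673 (0 reads) and those of Cxcl16 552 with Zmynd15 (182 reads), so reads there are less certain. PCR reads without molecular identifiers are not independent molecules, so counting intervals cover counting error only.

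Counts were tested with edgeR 4.0.16 (R 4.3.3): TMM factors (0.568 to 1.20, lowest at 8 h of LPS), genes kept by filterByExpr (count at least 10, total at least 15; 11308 genes, with all 4 members), robust quasi-likelihood fits with condition as a block and genotype as a term, and Benjamini-Hochberg adjustment over all genes at 0.05. Residual degrees of freedom were 8 for mean effects and responses, 6 by stimulus or by phase and 4 for phase within a stimulus. The common biological coefficient of variation was 0.111. SE is the log2 difference divided by the root of F. CPM used TMM-scaled totals, log2 CPM a prior count of 0.5, and counting intervals the exact conditional binomial at 95%. Ratios against 0 reads used a floor of 3 counts, per library, or over the 2 unstimulated libraries for the fold over both genotypes. Symbols came from a gene name table for 45143 of 45706 identifiers.

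The members and gene lists were chosen with earlier results of these data known. From each list the 4 genes of highest CPM and any near 0 could be named; the 5 most correlated genes had a mean log2 CPM of at least 1. Alternatives were DESeq2 size factors, library totals, no filter, 1 CPM in 9 libraries, DESeq2 1.42.0, limma-voom (limma 3.58.1), each condition left out with both its libraries, an exact sign-flip permutation test and a prior count of 2. The tests of late minus early within LPS and within TNF, and the alternatives for the former, were added after the data were seen. The fits were also run on data simulated with the same dispersion for every gene, which the 4 chemokines need not share. B-cell markers (1 of 4 tested, not called by genotype), dendritic cell markers (2 of 4 tested lower) and macrophage markers (3 of 9 higher, 2 lower) were also counted. Over the same 9 genotype pairs 10.3% of all genes tested were higher in knock-in cells and 9.46% lower.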

Additional observations from a re-analysis of the deposited data

Results flagged for a closer look

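The genotype difference of Cxcl10, knock-in minus WT, changed between early (0.5 and 1 h) and late (3 and 8 h) LPS times. Late minus early within LPS was 3.12 on the log2 scale by edgeR's quasi-likelihood test (adjusted p = 0.015, with a range of 1.45e-17 to 0.0699 over 15 alternatives, and 3.02 without the LPS 8 h pair at the upper end of that range). Early pairs were lower in the knock-in in 2 of 2 and late pairs higher in 2 of 2, with mean differences of -3.08 and 0.10, a gap of 3.19. The sign of the late pairs turns with scaling by total counts.

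Other groups of pairs also differed in their means, with opposite signs under either scaling for Cxcl11 only. For Cxcl10 the late TNF pairs had a mean of -1.05, which is 1.16 below the late LPS pairs, a difference that was not tested. For Cxcl11 the mean was 1.01 in late LPS pairs, -0.95 in early LPS pairs and -0.68 in late TNF pairs, so late LPS exceeded early LPS by 1.96 and late TNF by 1.68. The difference of Cxcl11 from early to late LPS was not called by edgeR's quasi-likelihood test (2.30 ± 0.69, adjusted p = 0.157), and that between late LPS and late TNF was not tested. The early LPS and late TNF values of Cxcl11 rest on at most 13 reads per library.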

How the results depend on the processing

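The 4 chemokines gave 60 results and 826 values under alternatives, of which 786 kept their direction and their side of the threshold, 17 lost the call, 12 gained one and 11 changed direction; the causes were not tested. Values are on the log2 scale. DESeq2 added calls for Cxcl10 over the 9 genotype pairs (-1.21), late minus early (1.88), from 0.5 to 1 h of LPS (2.98) and from 1 to 3 h of TNF (2.55), for Cxcl16 from 0.5 to 1 h of LPS (1.36) and for the TNF response of Cxcl11 (2.43), and lost Cxcl11 by genotype over 9 pairs (0.072) and over LPS (0.49). Limma-voom called Cxcl10 late minus early (2.54) and turned Cxcl10 LPS minus TNF (0.18) and Cxcl9 late minus early (-0.055). The sign-flip test gave -1.23 for Cxcl10, past the threshold, and -0.23 for Cxcl11, in the other direction. Scaling by total counts called Cxcl10 by genotype (-1.31) and lost Cxcl11 by genotype (0.60) and Cxcl9 from 3 to 8 h of LPS (0.38). With no filter Cxcl11 by genotype (0.79), Cxcl10 from 3 to 8 h of TNF (2.94) and Cxcl16 from 1 to 3 h (1.91) and 3 to 8 h of TNF (1.22) lost the call. Late minus early was 3.12 for Cxcl10 within LPS and -0.18 for Cxcl11 within TNF.

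Leaving out 1 condition pair at a time, late minus early within LPS ran from 2.80 to 3.58 for Cxcl10 (3.02 without LPS 8 h), 1.503 to 2.65 for Cxcl11 (2.46 and called without LPS 3 h) and -1.28 to 3.45 for Cxcl9; over both agents Cxcl9 ran from -0.10 to 2.45. The difference of genotype effects, LPS minus TNF, ran from -0.76 to 0.46 for Cxcl10 (0.39 without LPS 1 h, 0.11 without TNF 8 h) and -0.074 to 3.27 for Cxcl9. By genotype Cxcl11 ran from 0.34 to 0.85 over 9 pairs (0.78 without LPS 3 h) and 0.57 to 1.01 over LPS (1.00 without LPS 3 h), Cxcl16 over TNF from -0.50 to 0.021 and Cxcl9 over TNF from -4.48 (without TNF 8 h) to -1.13. The TNF response ran from 4.07 to 7.10 for Cxcl10, 5.06 to 8.12 for Cxcl9 and 0.74 to 2.35 for Cxcl11 (2.35 and called without LPS 8 h), and LPS against TNF from 0.49 to 1.04 for Cxcl16.

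Counts of genes called for late minus early went from 45 to 122 with DESeq2, 29 with total counts, 152 with no filter and 13 to 76 without 1 pair; for LPS minus TNF from 0 to 4 with DESeq2, 3 with no filter and 0 to 1; from 1 to 3 h of LPS from 4271 to 6559 with total counts; and from 0.5 to 1 h of TNF from 36 to 72 with DESeq2. Without 1 pair they ran from 582 to 1146 (1130) for genotype over LPS, 285 to 912 (602) over TNF, 1932 to 5970 (5530) for LPS against TNF, 1100 to 4201 (3434) for the TNF response and 553 to 1048 (696) from 1 to 3 h of TNF. No paired analysis was possible because the labels give no replicate numbers to pair by; genotypes were instead paired within each condition, as the block of the edgeR fits and in the sign-flip test. Depth limits Cxcl9 and Cxcl11 before 3 h and under TNF, where most libraries held fewer than 10 reads.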
